A study of Homo sapiens with 21 samples.

Results

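The regions described here are stretches of chromatin in CAMA1 cells that carry trimethylated lysine 4 of histone H3 (H3K4me3), divided by whether the receptor FGFR1 was found on them. CAMA1 is an established oestrogen receptor-positive breast cancer line in which, per the labels, FGFR1 is amplified. Chromatin immunoprecipitation with sequencing (ChIP-seq) was run for FGFR1 and for H3K4me3 on untransfected cells kept for 48 h in medium lacking estradiol, with 2 libraries per target and a list of peaks per library. The same cells gave lists for H3K27ac, FOXA1 and the polymerase form labelled Pol II S5P (serine 5 phosphorylation, taken with an antibody to the Rpb1 C-terminal domain), and FGFR1 was mapped again in cells collected 72 h after siNT transfection, the control arm of a FOXA1 knockdown. All groups come from this single line at a low passage and all were deprived of estradiol. Separate cultures are not stated for the libraries of a group, so their spread may be technical. A region was called reproducible when a merged stretch held a peak of both libraries on chromosomes 1 to 22 and X. Of 34260 reproducible H3K4me3 regions, 4384 (12.8%, 95% Wilson interval 12.4 to 13.2%) overlapped a reproducible FGFR1 region and form the group with FGFR1. The other 29876 form the group without FGFR1, and 24474 of these held no peak of either FGFR1 list.

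H3K4me3 is placed by the KMT2 and SETD1 methyltransferase complexes around the start sites of active and poised genes, where nucleosomes beside the nucleosome-depleted start carry it, and broad stretches of the mark are known from genes that define a cell's identity and from highly transcribed genes. FGFR1 is a receptor tyrosine kinase of the plasma membrane that binds fibroblast growth factors, and a nuclear form of the receptor has been described on chromatin. Pol II S5P is the form of the polymerase that has initiated and sits near the start, H3K27ac marks active promoters and enhancers, and FOXA1 is a forkhead pioneer factor on which the oestrogen receptor depends in luminal breast cells. The comparison asks which promoters marked by H3K4me3 also carry FGFR1, in a study that examined FGFR1 at gene promoters.

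Promoter sequences are shown first for genes whose values recur below. Each window runs from 250 bases before to 50 bases after the RefSeq gene start (GRCh38.p14, the same primary assembly as the hg38 of the peak lists), read 5′ to 3′ along the gene, so that the start follows the first 250 bases. Capitals mark exact matches, on either strand, to any of 10 short motifs that are spelled out further on. The first 4 windows belong to genes with FGFR1 and hold the FGFR1 summit of both libraries. KDM3B and KMT2A lead the genes by FGFR1 strength, and JUNB and RPL12 represent the immediate early and the ribosomal protein genes.
KDM3B, chr5:138352435-138352734, plus strand: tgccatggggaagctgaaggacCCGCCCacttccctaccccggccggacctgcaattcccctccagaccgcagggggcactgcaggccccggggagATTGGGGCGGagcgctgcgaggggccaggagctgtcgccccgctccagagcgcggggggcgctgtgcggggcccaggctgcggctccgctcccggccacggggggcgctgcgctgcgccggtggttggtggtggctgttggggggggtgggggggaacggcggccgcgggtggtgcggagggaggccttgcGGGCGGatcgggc
KMT2A, chr11:118436242-118436541, plus strand: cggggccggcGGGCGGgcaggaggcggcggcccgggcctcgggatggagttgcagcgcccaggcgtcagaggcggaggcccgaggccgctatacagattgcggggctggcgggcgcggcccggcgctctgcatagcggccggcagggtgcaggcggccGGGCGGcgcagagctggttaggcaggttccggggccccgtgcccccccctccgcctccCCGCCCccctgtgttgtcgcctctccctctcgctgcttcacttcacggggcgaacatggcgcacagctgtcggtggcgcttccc
JUNB, chr19:12791236-12791535, plus strand: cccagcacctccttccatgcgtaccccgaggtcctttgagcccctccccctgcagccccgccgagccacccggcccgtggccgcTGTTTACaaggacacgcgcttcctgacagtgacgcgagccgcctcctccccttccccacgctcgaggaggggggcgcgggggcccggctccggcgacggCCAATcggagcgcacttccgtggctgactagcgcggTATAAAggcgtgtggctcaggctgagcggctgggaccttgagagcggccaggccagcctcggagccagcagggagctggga
RPL12, chr9:127451357-127451656, minus strand: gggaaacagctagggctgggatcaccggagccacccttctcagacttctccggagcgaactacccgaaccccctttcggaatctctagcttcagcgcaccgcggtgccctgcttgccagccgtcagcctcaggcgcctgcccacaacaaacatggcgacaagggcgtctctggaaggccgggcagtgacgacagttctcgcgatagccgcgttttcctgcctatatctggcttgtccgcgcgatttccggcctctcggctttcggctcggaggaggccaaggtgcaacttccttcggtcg
In KDM3B the FGFR1 summits of replicates 1 and 2 fell at bases 165 and 166 of the window, in KMT2A at bases 124 and 100, in JUNB at bases 202 and 190 and in RPL12 at bases 255 and 254. The next 2 windows belong to genes whose H3K4me3 region held no FGFR1 peak of either list. STX1A is among the strongest such regions and PDCD4 among the widest.
STX1A, chr7:73719620-73719919, minus strand: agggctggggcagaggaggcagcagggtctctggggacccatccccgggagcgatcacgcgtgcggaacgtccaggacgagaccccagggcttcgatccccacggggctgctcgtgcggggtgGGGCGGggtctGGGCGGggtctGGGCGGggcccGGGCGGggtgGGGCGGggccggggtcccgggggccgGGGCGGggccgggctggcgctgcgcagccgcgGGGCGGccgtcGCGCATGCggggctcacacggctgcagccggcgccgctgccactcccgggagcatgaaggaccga
PDCD4, chr10:110871678-110871977, plus strand: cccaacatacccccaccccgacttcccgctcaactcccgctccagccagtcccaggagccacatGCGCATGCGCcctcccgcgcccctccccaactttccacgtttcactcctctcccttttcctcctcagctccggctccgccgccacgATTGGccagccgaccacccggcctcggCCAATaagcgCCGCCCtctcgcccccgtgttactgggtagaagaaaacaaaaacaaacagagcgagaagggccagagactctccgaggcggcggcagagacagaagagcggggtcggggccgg
The windows of KDM3B, KMT2A, JUNB and RPL12 had 77.0%, 76.3%, 71.0% and 62.3% G or C, against 79.3% in STX1A and 65.7% in PDCD4. A window of high G and C content with several GC boxes thus stood on both sides of the comparison, as the STX1A sequence shows.

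In untransfected cells, reproducible FGFR1 was found almost entirely on chromatin marked by H3K4me3, while most H3K4me3 regions were without it. Of 4736 reproducible FGFR1 regions, 4514 (95.3%, 94.7 to 95.9%) overlapped reproducible H3K4me3, and 222 did not. The share was 90.2% by FGFR1 replicate 1 alone, 84.7% by replicate 2 alone and 66.0% by the siNT lists. The FGFR1 regions with H3K4me3 were stronger within their lists. Their median percentile of fold enrichment, taken within each FGFR1 list and averaged over both, was 66.5 (quartiles 48.5 and 82.8), against 40.1 (19.3 and 80.0) for the 222 regions without H3K4me3. FGFR1 occupied a small part of the marked stretch. The FGFR1 region was 579 bp wide at the median and covered 21.1% of its H3K4me3 region (quartiles 15.4 and 29.2%), and 200 of the 4384 regions (4.56%) held 2 or more separate FGFR1 regions.

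The FGFR1 libraries differed in length, and with it the number of H3K4me3 regions covered. Replicates 1 and 2 gave 5341 and 13135 FGFR1 peaks, of which 93.1% and 36.3% were found in the other list, whereas the H3K4me3 lists held 41399 and 38624 peaks, of which 85.4% and 93.4% were found in the other. Between the groups with FGFR1 and without any FGFR1 peak stood 5402 H3K4me3 regions (15.8%), of which 5339 held a peak of FGFR1 replicate 2 only, 46 a peak of replicate 1 only and 17 separate peaks of both. These are called regions with a peak of 1 FGFR1 list below, the 17 included. Taken alone, FGFR1 replicate 2 covered 28.4% of H3K4me3 regions and replicate 1 covered 12.9%. The ranks of FGFR1 regions were close between the lists (Spearman's rho 0.726 over 4736 regions), and so were those of H3K4me3 regions (0.978 over 34260 regions). The lists give no read totals, so the depth of each library is unknown, and the intervals given here cover counting error over regions only. Regions of 1 genome are not replicates of a condition.

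H3K4me3 regions with FGFR1 were wide. Their median width was 2809.5 bp (quartiles 2166 and 3580.25 bp), against 934 bp (537 and 1757 bp) for regions without FGFR1, a ratio of 3.01. The interquartile ranges did not overlap. Regions with a peak of 1 FGFR1 list lay between them with a median of 2312 bp, and regions with no FGFR1 peak at all had 789 bp. The groups also differed in place, since 3445 of the 4384 regions with FGFR1 (78.6%) and 8534 of the 29876 without (28.6%) lay within 1 kb of the start of a protein-coding gene. Among regions at gene starts the medians were 2961 bp with FGFR1 and 2123 bp without, a ratio of 1.39, and the interquartile ranges (2391 to 3748 bp and 1460 to 2739 bp) overlapped. Away from gene starts the medians were 1948 bp for the 939 regions with FGFR1 and 721 bp for the 21342 without. The direction was the same at gene starts and elsewhere. Grouping the same H3K4me3 regions by Pol II S5P gave a ratio of median widths, with over without, of 3.27, and by H3K27ac 2.37, so a wider mark was not particular to FGFR1.

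**Figure D1:**
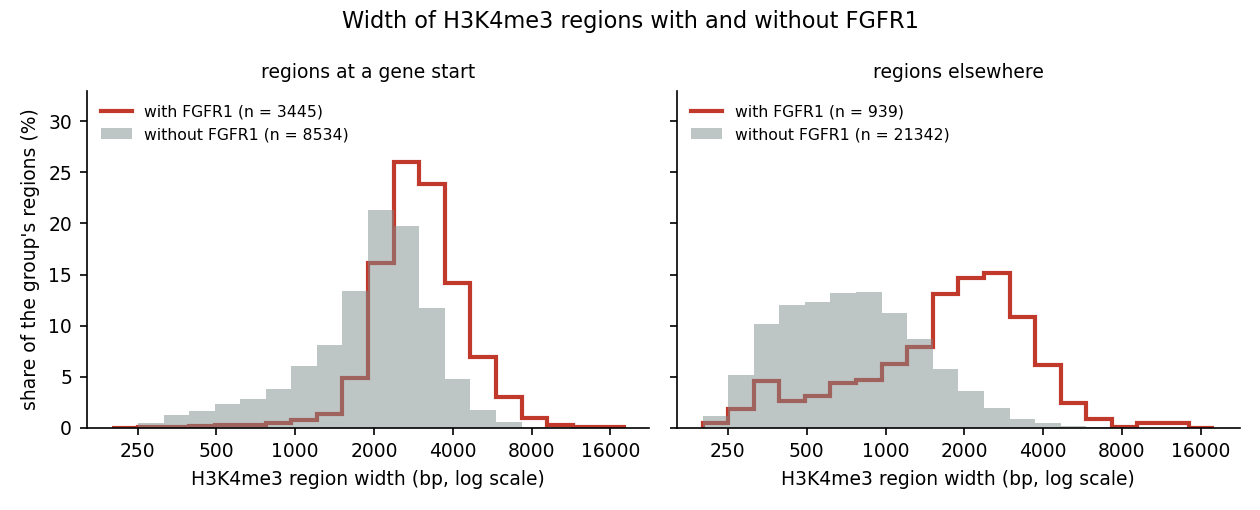
Width of H3K4me3 regions (x axis, bp, log scale) as the share of each group's regions per bin (y axis, %), at gene starts (left) and elsewhere (right); the red line gives regions with FGFR1 and the grey area regions without. At gene starts the medians were 2961 bp with FGFR1 and 2123 bp without, and elsewhere 1948 bp with and 721 bp without.

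A wider region offers more sequence on which an FGFR1 peak can fall, so the number of FGFR1 regions per length of H3K4me3 was counted as well. The share of regions with FGFR1 was 2.07% in the narrowest decile (204 to 381 bp), 1.02% in the next, 3.77% in the 6th decile (up to 1416 bp), 21.4% in the 8th and 50.7% in the widest (3093 to 17483 bp). Per 1000 kb of H3K4me3 there were 21.1 to 31.0 FGFR1 regions in deciles 2 to 6, 61.0 in decile 7, 101 in decile 8, 128 in decile 9 and 135 in decile 10. The rise with width was thus also present per unit of length from the middle deciles up. In the widest decile a peak of FGFR1 replicate 1 was at 50.9% of regions and a peak of replicate 2 at 83.9%. The narrowest decile stood apart with 65.0 FGFR1 regions per 1000 kb. Of its 71 regions with FGFR1, 14 were in the 1-Mb windows dense in FGFR1 peaks that are described further on, and outside those windows its share was 1.71%.

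**Figure D2:**
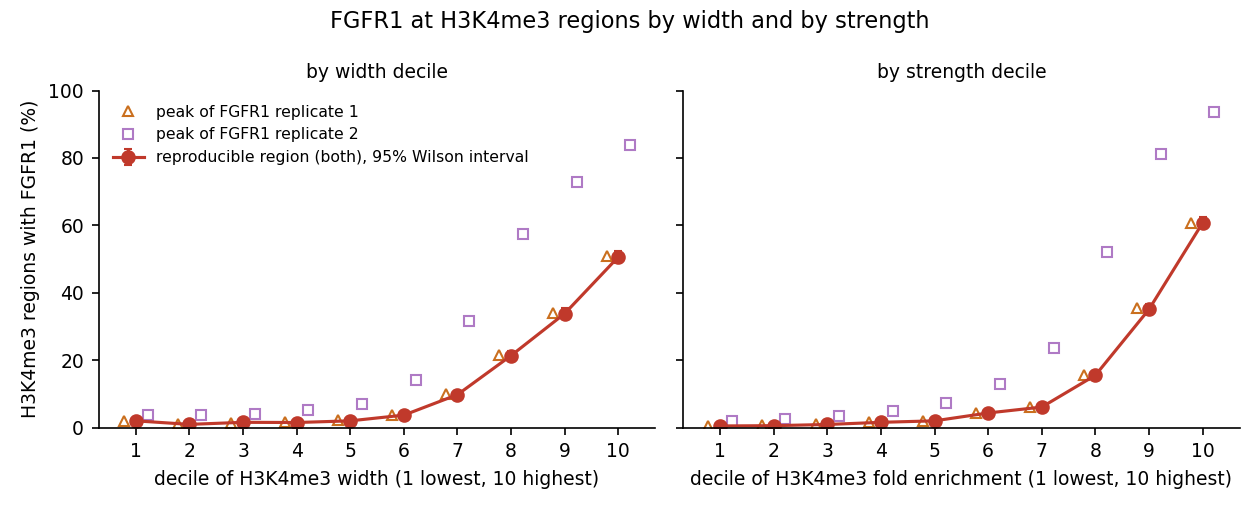
Share of H3K4me3 regions with FGFR1 (y axis, %) by decile of region width (left) and of H3K4me3 fold enrichment (right); red points are reproducible FGFR1 regions with 95% Wilson intervals, open triangles and squares the peaks of FGFR1 replicates 1 and 2. The share was 50.7% in the widest decile and 60.8% in the strongest, and by replicate 2 alone 83.9% and 93.8%.

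Regions with FGFR1 were also strong. Within-list percentiles of H3K4me3 fold enrichment, averaged over both H3K4me3 lists, had a median of 90.7 (quartiles 82.9 and 96.1) in regions with FGFR1, against 51.5 (30.9 and 71.5) in regions without. In H3K4me3 replicate 1 the median fold enrichment over background was 98.3 with FGFR1 and 12.3 without, and in replicate 2 it was 99.8 with and 11.6 without. Both libraries therefore gave the same order of the groups, with interquartile ranges that did not overlap. At gene starts the median percentile was 92.2 (86.1 to 96.6) with FGFR1 and 78.4 (69.9 to 87.1) without, so the ranges overlapped slightly. By strength decile the share with FGFR1 was 0.555% in the weakest, 4.41% in the 6th, 15.6% in the 8th, 35.1% in the 9th and 60.8% in the strongest. These shares rest on the shorter list, since a peak of FGFR1 replicate 1 was at 15.7%, 35.4% and 60.9% of the last 3 deciles named. A peak of replicate 2 was at 52.1%, 81.2% and 93.8% of them. The highest H3K4me3 folds were 109.5 and 113.7, shared by 14 and 11 peaks, so the upper end of the scale is compressed.

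Width and strength went together (rho 0.850 over 34260 regions), and a logistic model with both terms was fitted over all H3K4me3 regions. Alone, a doubling of width multiplied the odds of FGFR1 by 4.81 (95% interval 4.59 to 5.05) and 10 percentile points of strength by 2.65 (2.57 to 2.73). With both terms in the model the odds ratio was 1.54 (1.44 to 1.65) for width and 2.27 (2.18 to 2.36) for strength. Both terms kept an interval above 1, and the width term shrank the more. Restricted to gene starts, the model gave 2.08 (1.90 to 2.29) for width and 2.92 (2.75 to 3.10) for strength. In a grid of width and strength quintiles the share with FGFR1 was 55.5% of 4612 regions in the top quintile of both, 32.7% of 2169 regions in the top strength and the 4th width quintile, and 16.5% of 1916 regions in the top width and the 4th strength quintile. Wide regions of middle strength were rarely bound, with 6.83% of 293.

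**Figure D3:**
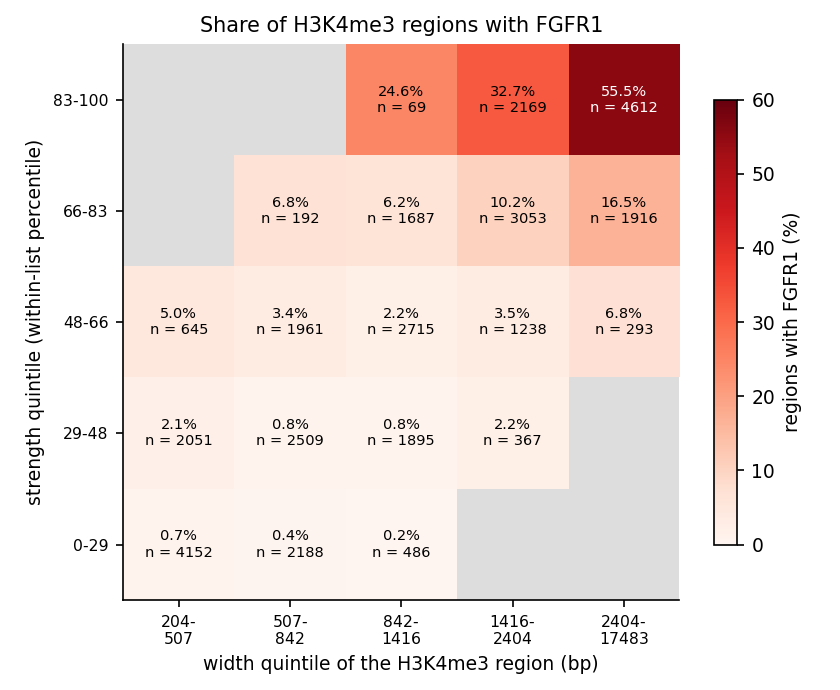
Share of H3K4me3 regions with FGFR1 (colour and first number, %) by quintile of region width (x axis, bp) and of within-list strength (y axis, percentile), with the number of regions in each cell; cells with fewer than 50 regions are grey. The share reaches 55.5% where both are highest and is 6.83% in wide regions of middle strength.

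Within the regions with FGFR1, the strength of FGFR1 itself followed H3K4me3 only weakly. Across the 4384 regions, Spearman's rho between the FGFR1 and H3K4me3 percentiles was 0.159, and between the FGFR1 percentile and H3K4me3 width it was 0.111. These points share their libraries and the compressed upper end of the H3K4me3 scale.

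The strongest FGFR1 regions reaching within 1 kb of a gene start belonged to 8 genes. KDM3B, a lysine 9 demethylase of histone H3, had FGFR1 folds of 33.7 and 39.1 in replicates 1 and 2 (chr5:138352388-138353373) within a 3347 bp H3K4me3 region of folds 106.5 and 110.9. KMT2A, an H3K4 methyltransferase, had FGFR1 folds of 30.7 and 37.5 within a 4361 bp H3K4me3 region of folds 85.8 and 88.8. ING3, a reader of H3K4me3 in the NuA4 acetyltransferase complex, had FGFR1 folds of 25.7 and 29.5. The rest of the 8 were LOC124900276 (30.5 and 35.3), RHBDD2, a rhomboid family protein (26.8 and 35.1), TONSL and VPS28, which share a region (25.7 and 36.9), and U2AF2, which recognises the polypyrimidine tract in splicing (26.2 and 32.4). The FGFR1 summits of U2AF2 lay at -1244 and -1236 bp from its start. Only the edge of its FGFR1 region came within 1 kb. All 8 also had siNT FGFR1 and, KMT2A excepted, Pol II S5P in the same H3K4me3 region.

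FGFR1 differed in strength between the widest H3K4me3 regions of genes with FGFR1 within 1 kb of the start. For comparison, all FGFR1 regions with H3K4me3 had percentile quartiles of 48.5 and 82.8. The 17069 bp region of IRX5, a homeobox gene, had FGFR1 folds of 12.3 and 21.8, a mean FGFR1 percentile of 97.6. The 15398 bp region shared by FAM217B and SYCP2 had FGFR1 folds of 5.004 and 5.55 (percentile 48.5), and the 14326 bp region shared by FOXA1 and TTC6 had 5.004 and 7.99 (percentile 61.2). KMT2E, whose product binds H3K4me3, lay in a 14266 bp region with FGFR1 folds of 8.42 and 12.2 (percentile 90.6). Its FGFR1 summits were at -642 and -1384 bp from the start. The median percentile of FGFR1 regions with H3K4me3, 66.5, thus lay within the range of these 4 regions.

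Wide or strong H3K4me3 without any FGFR1 peak also occurred. Among the widest such regions at gene starts were those at DACH1, a transcriptional cofactor (7593 bp), CISH and MAPKAPK3, which share a region (7061 bp), PDCD4, an inhibitor of translation (6904 bp), and ARID1B, a chromatin remodelling subunit (6778 bp). The DACH1 region had H3K4me3 folds of 102.1 and 103.2, above the medians of the regions with FGFR1 (98.3 and 99.8). The strongest were at PAQR8, a membrane progestin receptor (105.7 and 110.9), SH3PXD2B, a podosome scaffold (105.7 and 108.6), STX1A, a syntaxin of exocytosis (105.4 and 107.5), DPM1 and MOCS3, which share a region (105.7 and 106.9), and RAE1, an mRNA export factor (104.1 and 108.3). Of the regions named here all but that of ARID1B had Pol II S5P, and none had siNT FGFR1.

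Each gene was given the strongest H3K4me3 region within 1 kb of its start, and 4 genes had the narrowest such region among genes with FGFR1 within 1 kb of the start. HSPA1B, an inducible heat-shock protein, had a 543 bp H3K4me3 region of folds 73.5 and 72.9 with FGFR1 folds of 11.8 and 18.9, but near-identical copies of this gene make its position uncertain. LRRC56 (442 bp, H3K4me3 folds 6.83 and 9.93) and PNMA6E (277 bp, 3.82 and 4.25) had FGFR1 folds of 9.55 and 12.2 and of 7.51 and 10.2, the FGFR1 summits of PNMA6E lying 1090 and 1068 bp downstream of the start. F10-AS2 (651 bp) had FGFR1 folds of 5.69 and 6.88.

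FGFR1 lay inside the H3K4me3 region, towards its centre but less so than the H3K4me3 summit itself. Of 4384 FGFR1 summits, 30.9% (29.5 to 32.2%) fell in the middle 20% of the region's length, where an even spread gives 20%. Taken alone, FGFR1 replicates 1 and 2 each had 30.5% of their summits there. The outermost 20% at either end held 5.52% and 5.09%, and 85 and 78 summits lay outside the region on either side. In the same regions the middle 20% held 53.1% (51.6 to 54.5%) of H3K4me3 summits, 42.7% (41.2 to 44.2%) of 4295 H3K27ac summits, 32.8% (31.4 to 34.4%) of 3781 Pol II S5P summits and 19.0% (17.5 to 20.5%) of 2614 FOXA1 summits. The interval of FGFR1 overlapped that of the polymerase, and lay below those of both histone marks and above that of FOXA1.

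FGFR1 and H3K4me3 summits were seldom at the same place. They were 296 bp apart at the median, and 8.55% lay within 100 bp of each other. FGFR1 and Pol II S5P summits were 76 bp apart at the median, and 58.2% lay within 100 bp. Between the libraries the FGFR1 summits of a region differed by 43 bp at the median and the H3K4me3 summits by 21 bp, so the distance of FGFR1 from H3K4me3 was several times the spread between replicates, and that from Pol II S5P was closer to it. FOXA1 summits, where present, were 463 bp from FGFR1.

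Read along the gene, FGFR1 sat at the start and H3K4me3 downstream of it. In 2292 gene-start regions with FGFR1 and a single start of known strand, the FGFR1 summit was at -21 bp from the start at the median (quartiles -108.6 and 51 bp), and 81.1% lay within 250 bp of it. The Pol II S5P summit was at 37 bp in 2099 of these regions and the H3K4me3 summit at 242.5 bp (178 and 398.5 bp). The interquartile ranges of FGFR1 and H3K4me3 did not overlap. In the 5490 gene-start regions without FGFR1 that had a single start of known strand, the H3K4me3 summit was at 211 bp. Over the same 2292 and 5490 regions, the wider mark of those with FGFR1 extended further on both sides. It reached 977.5 bp upstream and 1841.5 bp downstream with FGFR1, against 729 bp and 1373 bp without.

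**Figure D4:**
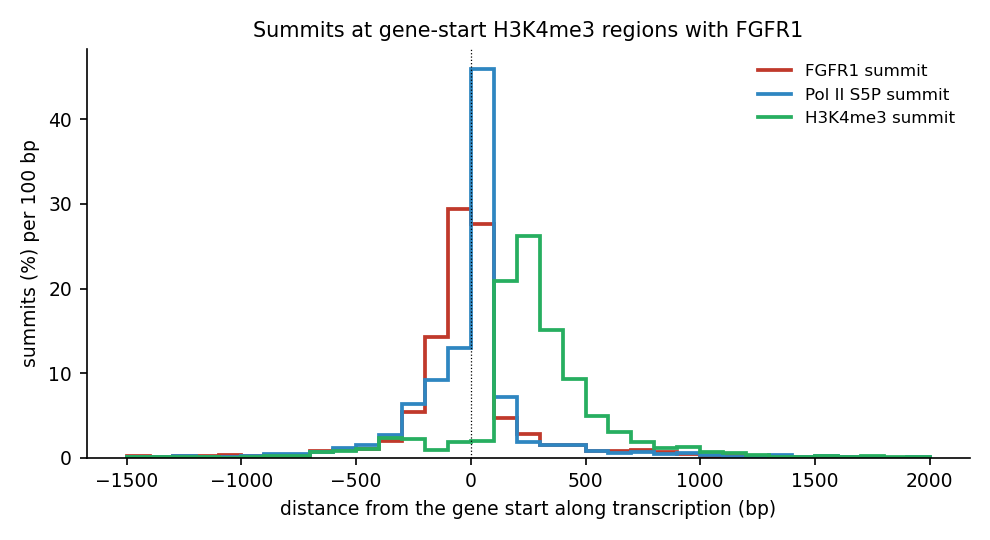
Position of summits relative to the gene start along transcription (x axis, bp; negative is upstream) in gene-start H3K4me3 regions with FGFR1, as the share of each target's summits per 100 bp (y axis, %). Only regions with a single start of known strand are shown. FGFR1 summits (red, median -21 bp) straddle the start. Pol II S5P summits (blue, 37 bp) lie just after it and H3K4me3 summits (green, 242.5 bp) further downstream.

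Of gene starts, H3K27ac, FOXA1 and Pol II S5P, the last separated the groups most by odds ratio. It was present at 86.2% (85.2 to 87.2%) of H3K4me3 regions with FGFR1, against 14.8% (14.4 to 15.3%) where FGFR1 was missing, which is an odds ratio of 36.0 (32.8 to 39.4). Within 25 cells of equal width and strength quintile the odds ratio was 6.45 (5.76 to 7.22). Among regions in the top strength quintile, 94.1% of 3286 with FGFR1, 81.4% of 2718 with a peak of 1 FGFR1 list and 45.3% of 848 with no FGFR1 peak had Pol II S5P. The difference in polymerase thus held among H3K4me3 regions of similar strength, although both it and FGFR1 were called from peak thresholds.

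H3K27ac and FOXA1 separated the groups far less. H3K27ac was at 98.0% of regions with FGFR1 and 88.2% of the others, with an odds ratio of 6.43 (5.20 to 7.96) that became 0.885 (0.693 to 1.13) within the 25 cells. FOXA1 was at 59.6% (58.2 to 61.1%) of regions with FGFR1 and 58.1% (57.6 to 58.7%) without, an odds ratio of 1.06 (0.998 to 1.14), and 1.40 (1.30 to 1.52) within the cells. Regions with FOXA1 were themselves narrower than those without it (medians 999 bp with FOXA1 and 1213 bp without), but with strength in the model the odds of FOXA1 rose 3.39-fold (3.25 to 3.53) per doubling of width.

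With 1 start taken per protein-coding gene, a gene start carried no excess of FGFR1 beyond the width and strength of its mark. Any other promoters count as elsewhere here, and their number was not determined. FGFR1 was at 28.8% of the 11979 H3K4me3 regions at gene starts and 4.21% of the 22281 elsewhere, an odds ratio of 9.18 (8.50 to 9.90). Within width quintiles the odds ratio was 1.94 (1.77 to 2.13), and within the 25 cells of width and strength it was 0.895 (0.803 to 0.997). In alternatives applied to this last value after seeing the data, its interval included 1 under 8 of 15 settings. As a term beside width and strength in the logistic model, gene start had an odds ratio of 0.737 (0.665 to 0.817). With Pol II S5P and H3K27ac also in the model it was 0.646 (0.578 to 0.722). Regions holding 2 or more gene starts had FGFR1 more often than those with 1 start (36.4% of 1546 and 27.6% of 10433, odds ratio 1.496, 1.34 to 1.67), and this too was at 0.964 (0.850 to 1.09) within the cells.

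Of 19974 protein-coding genes, 13109 had H3K4me3 within 1 kb of the start, and 3832 of these (29.2%, 28.5 to 30.02%) had reproducible FGFR1 there. Another 4217 had a peak of 1 list and 5060 (38.6%) had no FGFR1 peak in either list. The share rose with the strength of the mark at the gene, being 1.37% of 1311 genes in the weakest decile of marked genes, 29.8% of 1310 in the 6th and 75.0% of 1311 in the strongest. Each of 24 gene classes is therefore given beside 2 shares, that of all marked genes (29.2%) and the share that all marked genes of the same strength deciles had. Classes were counted without a test. The share from strength takes no account of width or Pol II S5P. Median H3K4me3 width was 2470 bp over all marked genes, with Pol II S5P at 59.1%. Among classes above their share from strength, cytosolic ribosomal protein genes had 3136 bp and 98.8%, and immediate early genes 4535 bp and 75%. Below theirs, ZNF genes had 2437 bp and 61.9%, and MCM, ORC and CDC genes 2807 bp and 67.4%. What width or polymerase adds to a class share was not tested. The lineage labels held at the level of the mark, since H3K4me3 was at 11 of 12 luminal markers, of which 7 had FGFR1, all but ESR1 being marked within 1 kb of the annotated start. Marks of other lineages were fewer, at 4 of 8 basal or mesenchymal markers, at 1 of 6 neuronal or hepatic ones and at 2 of 6 haematopoietic ones.

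Among genes for making RNA and protein, the cytosolic ribosomal protein genes and the splicing genes had the higher shares. Of 83 marked cytosolic ribosomal protein genes, 48 (57.8%, 47.1 to 67.9%) had FGFR1, where the strength deciles gave 41.6%, and only RPL8, RPL35A, RPS25 and RPL29 had no FGFR1 peak in either list. RPL10A had FGFR1 folds of 13.0 and 19.3, RPS3 had 12.5 and 21.3, and RPL12 had 9.55 and 17.8, with summits 4 and 3 bp after the start. The SR protein and hnRNP genes, which act in splicing, had FGFR1 at 16 of 33 (48.5% against 32.0% from strength), HNRNPAB foremost (17.1 and 23.5). Translation factor genes had it at 27 of 62 (43.5% against 38.9%), among them EEF2 (7.51 and 12.2). Mitochondrial ribosomal protein genes had it at 26 of 76 (34.2% against 38.8%), led by MRPL14 (17.3 and 23.8). Oxidative phosphorylation genes had it at 23 of 76 (30.3% against 38.5%) and proteasome genes at 12 of 45 (26.7% against 37.9%), with ATP5MC2 (13.6 and 19.8) and PSMD5 (7.96 and 13.1) as their strongest. The Wilson interval of the cytosolic ribosomal protein genes lay above the share from strength, that of the splicing genes began at 32.5%, barely above it, and those of the translation factor, mitochondrial, oxidative phosphorylation and proteasome genes included it.

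Chromatin and transcription genes differed among themselves. H3K4 methyltransferase and partner genes had FGFR1 at 11 of 17 (64.7%, 41.3 to 82.7%, against 33.8% from strength), including KMT2A, ASH2L (9.33 and 15.8), KMT2B (7.73 and 10.2) and SETD1A (5.69 and 10.4), whereas CXXC1 and MEN1 had no FGFR1 peak. Lysine demethylase genes had it at 7 of 17 (41.2% against 34.7%), with KDM4B (16.6 and 24.9) after KDM3B. ZBTB genes, which encode zinc finger repressors with a BTB domain, had it at 16 of 35 (45.7% against 30.6%), led by ZBTB7A (19.3 and 21.98). The far larger ZNF group had it at 103 of 415 (24.8%, 20.9 to 29.2%, against 32.5%), so its interval lay below the share from strength, even though ZNF652 reached 15.2 and 19.98. Mediator genes had it at 6 of 30 (20% against 29.3%), MED4 foremost (14.8 and 19.3). Replication-dependent histone genes had it at 25 of 52 (48.1% against 28.8%), but clustered histone genes share regions, and 15 of their 30 regions had FGFR1, so the genes are not independent.

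Developmental genes were marked more weakly than most classes. None of 21 marked HOX genes had FGFR1, where strength gave 6.52%. Taken as independent, a count of 0 in 21 allows a share of up to 14.3% by a limit of 3 counts (15.5% by the Wilson bound). The 21 genes lay in 18 H3K4me3 regions, so they are not independent. Of the 21 genes, 15 had no FGFR1 peak of either list, HOXC9, HOXB2, HOXD8 and HOXD1 being the most strongly marked of them. The other homeobox, PAX, SOX, TBX and FOX genes had FGFR1 at 20 of 81 (24.7%, 16.6 to 35.1%, against 16.3% from strength), with IRX5, FOXO6 (11.6 and 17.3) and OTX1 (8.87 and 10.4) leading and SIX4, MEIS2, POU6F1 and DLX4 without a peak. Of the olfactory receptor genes 3 were marked, with FGFR1 at 0 of 3, where strength gave 2.19%.

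Genes of growth signalling and the cell cycle gave mixed counts. Immediate early genes, the first to be transcribed after growth factor signals, had FGFR1 at 17 of 32 (53.1%, 36.4 to 69.1%, against 35.4% from strength). JUNB had folds of 18.9 and 34.4, JUND 16.4 and 17.3, DUSP1, an ERK phosphatase, 12.5 and 23.8 and IER5 10.0 and 13.8, whereas MCL1, FOSL1, IER2 and ZFP36L2 had no FGFR1 peak within 1 kb of the start. FGF and ERK signalling genes had it at 15 of 40 (37.5% against 30.5%), including CCND1, the cyclin D1 gene (21.6 and 27.8), FGFR4 (10.0 and 13.3) and PTPN11 (10.5 and 12.2), and SPRY1, KSR1, SPRED3 and CBL were without a peak. Cyclin and cyclin-dependent kinase genes had it at 13 of 34 (38.2% against 38.2%), with CDK12 (20.02 and 30.2) after CCND1. DNA replication and division genes, among them the MCM, ORC and CDC families, had it at 8 of 46 (17.4%, 9.09 to 30.7%, against 33.9%), an interval below the share from strength. Another 23 of the 46 had a peak of 1 FGFR1 list and 15 had none. CDC25C (19.6 and 25.1) was their strongest, and MCM5, TOP2A, MCM6 and MKI67 had no peak. Heat-shock and unfolded protein response genes had it at 27 of 72 (37.5% against 35.5%).

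Luminal and oestrogen receptor genes had FGFR1 at 14 of 36 (38.9%, 24.8 to 55.1%, against 29.6% from strength). ESRP1, an epithelial splicing regulator, had folds of 12.7 and 15.8, ELF3 had 8.87 and 14.2 and KRT19 had 8.87 and 9.55. NRIP1, TFAP2A, GREB1 and BCL2 had no peak within 1 kb of the start. The H3K4me3 region of TFAP2A, 16568 bp, was wider than any with no FGFR1 peak of either list (at most 9923 bp). It therefore held a peak of at least 1 FGFR1 list further from the start. Of the lists of other lineages, 10 of 20 basal or mesenchymal genes were marked, with FGFR1 at SNAI1 (9.33 and 13.5), which is 10% against 8.93% from strength. Of 12 neuronal or hepatic genes 4 were marked, with FGFR1 at SYP (5.23 and 5.11), where strength gave 4.79%. Of 15 haematopoietic genes 4 were marked, with FGFR1 at 0 of 4, where strength gave 2.59%. Counts this small do not set these lists apart from the strength of their marks.

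**Figure D5:**
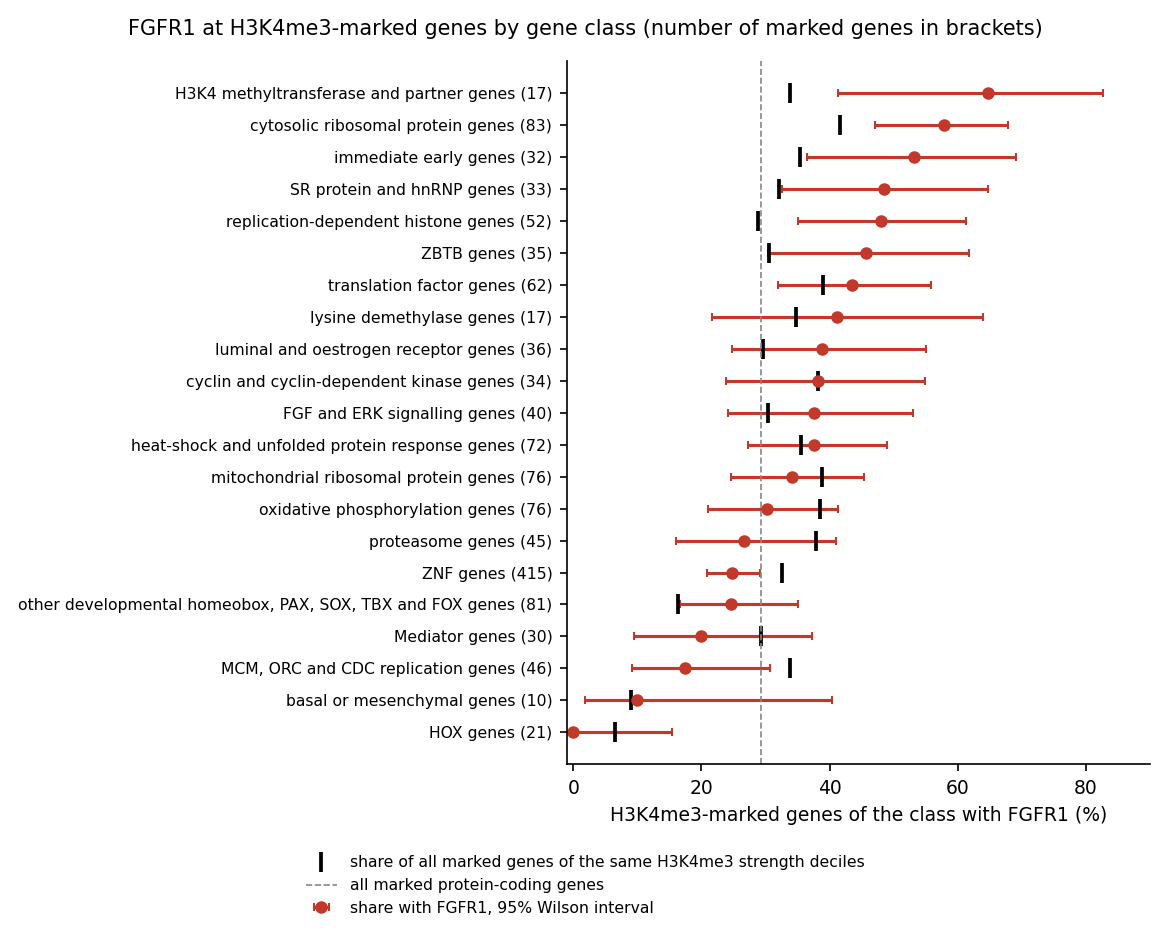
Share of H3K4me3-marked genes with FGFR1 (x axis, %) in each gene class with at least 10 marked genes; red points carry 95% Wilson intervals, black bars give the share of all marked genes in the same H3K4me3 strength deciles and the dashed line is all marked genes (29.2%). Cytosolic ribosomal protein genes (57.8%) lie right of their black bar, and ZNF (24.8%) and MCM, ORC and CDC genes (17.4%) left of it.

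Promoter sequence, which the choice of groups did not use, differed in composition. RefSeq windows were at hand for 15812 genes, of which 10675 were marked. The median G and C content was 69.0% in 3155 marked promoters with FGFR1, 64.7% in 7520 marked promoters without and 52.7% in 5137 unmarked promoters. CpG dinucleotides numbered 31 per window with FGFR1, 25 without and 5 in unmarked promoters. By quintile of G and C content, FGFR1 was at 17.2% (15.7 to 18.9%) of marked promoters in the lowest (up to 58.0%) and 41.0% (39.0 to 43.1%) in the highest (from 74.0%). The share rose at every step between them. These shares were not adjusted for the strength of the mark.

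The 10 motifs were searched on both strands as exact letters, some of which can overlap in a window. The GC box of SP and KLF factors (GGGCGG) was in 79.3% (77.9 to 80.7%) of marked promoters with FGFR1, 71.0% (70.0 to 72.0%) without and 58.5% of all promoters, an odds ratio of 1.56 (1.42 to 1.73) that became 0.975 (0.869 to 1.09) within quintiles of G and C content and 1.49 (1.33 to 1.67) within strength deciles. The YY1 motif (ATGGCGG) was in 13.0% with FGFR1, 9.24% without and 7.63% of all, with an odds ratio of 1.48 (1.30 to 1.70) within G and C quintiles and 1.11 (0.963 to 1.29) within strength deciles. The ETS motif (CCGGAAG) was in 21.6% with FGFR1, 18.5% without and 14.2% of all, and the E-box (CACGTG) in 12.1%, 9.73% and 8.87%. The ETS odds ratio was 1.31 (1.18 to 1.46) within G and C quintiles and 0.891 (0.794 to 1.001) within strength deciles, and the E-box kept 1.24 (1.09 to 1.42) and 1.17 (1.004 to 1.35). The forkhead motif (TGTTTAC) was in 1.97% with FGFR1, 2.26% without and 2.62% of all. CCAAT (36.2% with FGFR1, 36.6% without, 36.3% of all), TATAAA (4.79%, 5.39% and 9.64%), GCATGCGC of NRF1 (6.02%, 5.51% and 4.26%), TGACGTCA (3.55%, 3.22% and 2.59%) and TGACTCA (2.35%, 2.58% and 3.67%) differed by less than 1 percentage point between the groups. TATAAA had an odds ratio of 1.25 (1.02 to 1.53) within G and C quintiles and 1.06 (0.848 to 1.33) within strength deciles. The E-box was the motif of the 10 whose interval lay on the same side of 1 under both adjustments, with a lower bound of 1.004 within strength deciles. G and C content and strength were adjusted for separately, never together, and the number of motifs was not corrected for. CCAAT lay above 1 within G and C quintiles (1.15, 1.05 to 1.26) and below it within strength deciles (0.894, 0.810 to 0.987).

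The share with FGFR1 differed between chromosomes. At gene starts it was 43.5% of 558 H3K4me3 regions on chromosome 5, 40.5% of 410 on chromosome 8 and 40.2% of 550 on chromosome 16, and 16.3% of 471 on chromosome 10, 11.7% (7.76 to 17.2%) of 180 on chromosome 18 and 3.87% (2.40 to 6.2%) of 413 on chromosome X. H3K4me3 itself moved with this. Its median percentile at gene starts was 90.7, 87.1 and 90.1 on chromosomes 5, 8 and 16, and 81.0, 81.2 and 72.4 on chromosomes 10, 18 and X. From the strength deciles of gene-start regions the shares would be 40.8%, 37.9% and 36.3% on the first 3 chromosomes and 20.8%, 20.6% and 8.07% on the others. The Wilson intervals of chromosomes 10, 18 and X ended below these, and so did those of chromosomes 2, 3 and 4 against their own shares from strength, while that of chromosome 1 lay above it. With chromosome as a term, the model over all regions gave 1.66 (1.55 to 1.78) per doubling of width and 2.14 (2.06 to 2.22) per 10 points of strength. Peaks also crowded locally. In the genome 25 windows of 1 Mb held over 10 times the mean number of FGFR1 peaks, and 438 of the 1077 H3K4me3 regions in them (40.7%) had FGFR1. Without these windows the share was 11.9%, the width ratio 3.005 and the difference in median strength 38.8 points. The gene class shares were counted with these windows included. Copy number was not taken into account in the folds or the class shares.

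The siNT group gave FGFR1 peaks in lists that had no part in choosing the groups. Its replicates 1 and 2 held 6007 and 6594 peaks, of which 37.9% and 34.7% were found in the other list. All values by the siNT lists rest on this limited overlap. The 2 siNT lists shared 2231 regions, and 1420 H3K4me3 regions (4.14%) had siNT FGFR1. It was at 26.6% (25.3 to 27.9%) of the regions with untransfected FGFR1, 3.72% (3.25 to 4.26%) of those with a peak of 1 list and 0.217% (0.166 to 0.283%) of those with none. The order of the 3 groups was therefore kept, with intervals that did not overlap. Among regions in the top strength quintile the shares were 24.3% of 3286, 1.69% of 2718 and 0.236% of 848. Of H3K4me3 regions grouped by siNT FGFR1, those with it had a median width of 2468.5 bp and those without 1042 bp, and median percentiles of 88.7 and 55.5. The model separated the 2 features differently, since siNT FGFR1 followed strength (odds ratio 1.71, 1.62 to 1.79, per 10 points) but at equal strength was less frequent in wider regions (0.844, 0.765 to 0.931, per doubling). The width term of the untransfected lists, 1.54, was thus not seen in the siNT lists, and the difference between them was not tested.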

How the data were processed

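ChIP-seq peak lists of CAMA1 cells were analysed as deposited, 1 list per library. The submitters' processing notes name Bowtie2, SAMtools, Picard, MACS2 and the build hg38; versions, settings and library depths are not given in the sources used here. Each deposited list gives the authors' fold (a ratio of signal to the caller's background) and the authors' −log10 q-value for every peak, as its layout shows, with a summit. Peak names within the FGFR1 lists carry other replicate numbers than the labels, and the same number occurs in both lists. The labels were followed, and the names cannot show which library each list came from. The inputs and the siFOXA1 lists were not used here.

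Peaks on chromosomes 1 to 22 and X were kept; between 0.0227% and 1.85% of a list's peaks lay elsewhere. Peaks of both lists of a group that overlapped by at least 1 bp were merged, and a merged stretch with a peak of each list was a reproducible region. Fold percentiles were taken within each list and averaged over both. Gene starts of 15812 of 19974 protein-coding genes came from the RefSeq windows. The other 4162 have no strand there, so the gene end with reproducible H3K4me3 was used and their orientation was not analysed. Shares carry 95% Wilson intervals, and odds ratios carry Woolf, Mantel-Haenszel or Wald intervals. The code ran in Python 3.11.15 with NumPy 2.4.6, pandas 2.3.3 and SciPy 1.17.1 and was tested on simulated data. With 2 lists per group no test over libraries was made.

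Genes were named by rule, each by the strongest H3K4me3 region within 1 kb of its start: of genes with FGFR1 within 1 kb of the start, the 8 with the strongest FGFR1 and the 6 with the widest and 4 with the narrowest H3K4me3 region, the 6 widest and 6 strongest without a peak, and up to 4 members with and 4 without FGFR1 per class. A gene that the rule names is not reported here. The regions, classes and motifs were chosen with earlier results of these data known. The alternatives covered the q threshold, overlap, windows, list length, model terms, siNT lists and each list left out. Same-numbered libraries did not deviate together (r = 0.0438 between H3K4me3 and FGFR1 in log2 fold of replicate 1 over 2, 4384 regions). Libraries of a shared culture need not deviate together, so this cannot decide whether the numbers pair them.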

Additional observations from a re-analysis of the deposited data

How the results depend on the processing

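The width term, with strength in the model, turned round when FGFR1 was read from the siNT lists (0.844), also without the windows crowded with peaks (0.784, an alternative chosen after seeing the data); the cause was not tested. No other result changed direction. The shares rest on FGFR1 replicate 1, the shorter list. Leaving out 1 list at a time gave 10.7% to 28.4% of H3K4me3 regions with FGFR1 and 29.1% to 61.3% of marked genes, with the upper values from FGFR1 replicate 2 alone, and 84.7% to 95.6% of FGFR1 regions with H3K4me3. The summits in the middle 20% were then 30.1% to 31.5%, the width ratio 3.01 to 4.11, the strength difference 39.2 to 46.4 points and the gene-start odds ratio 8.96 to 11.8. With same-numbered lists as a replicate block, FGFR1 regions with H3K4me3 were 87.6%, H3K4me3 regions with FGFR1 18.1%, marked genes with it 45.2% and the width term 1.52. By the siNT lists, 66.0% of FGFR1 regions had H3K4me3, 4.14% of H3K4me3 regions and 6.61% of marked genes had FGFR1, and the gene-start odds ratio was 2.88. Against regions with no FGFR1 peak it was 15.2. The middle 20% held 29.96% of summits with reciprocal overlap of 50%, 31.6% with the summit inside, 31.8% with regions within 1 kb joined, 29.9% with lists of equal length and 29.0% by siNT; the cause of these shifts was not tested. The 25-cell gene-start odds ratio ran from 0.580 to 0.978. Peak lists without read totals limit what an absent FGFR1 peak can show.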
